A study of Mus musculus with 4 samples.

Results

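Ribosome footprints of 10 non-collagen extracellular matrix proteins are described: fibronectin (Fn1), the matricellular proteins Sparc, Fstl1, Tnc, Thbs1, Thbs2 and Postn, and the microfibril and elastic fibre proteins Fbn1, Fbln2 and Eln. They were taken by gene symbol from a table of 55573 genes, and all 10 were in it. Ribosome profiling (Ribo-seq), which sequences the pieces of mRNA that ribosomes shield from nuclease, was performed on primary myoblasts, the cultured offspring of muscle stem cells, at day 2 of proliferation. WT cells gave 2 libraries, and cells of mice given as eIF5A knockouts gave the other 2, called KO-labelled here. The myoblasts were isolated from hind-limb muscles of 3-week-old mice, and the knockouts were littermates of the WT mice, treated with tamoxifen. In the knockout, floxed eIF5A is removed by a tamoxifen-dependent Cre expressed from Pax7, so only cells that have expressed Pax7 can lose the gene. The study gives its controls at one place as Pax7 CreERT2/+ mice and at another as floxed mice without Cre, and the labels of these libraries say only WT. All 4 cultures were grown with FGF and treated with cycloheximide, and no sort of the cells is described for them. Nothing says how many animals stand behind a library, so p-values measure the spread between libraries, which may be technical.

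Fibronectin is secreted as a dimer and assembled by integrins into fibrils on which much of the later matrix is laid down. Matricellular proteins are secreted into the matrix but act mainly on cells, by binding growth factors, receptors and other matrix proteins, rather than as structure. Fibrillin-1, the product of Fbn1, forms microfibrils that hold latent TGF-beta and serve as a scaffold for elastin. In muscle these proteins come chiefly from fibroblast-like cells of the interstitium, and muscle stem cells and myoblasts make some of them too, fibronectin being part of their niche during regeneration.

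The factor eIF5A is known for helping ribosomes through consecutive proline codons, so the coding sequences were searched for them, in the longest coding transcript of each gene in GENCODE vM21 (GRCm38). Only Fn1 and Fbn1, 2 of the 10 genes, held a run of 3 or more. The longest run was 2 codons in Sparc, Fstl1, Tnc, Thbs1, Thbs2, Fbln2 and Eln, and Postn held no consecutive prolines. The stretches below hold the runs of 3 or more, and are shown as places where such a dependence could be looked for. Each is coding sequence on the minus strand, with the codons of the proline run in capitals. The 5 codons on either side are in lower case, and in Fbn1 they include single proline codons.
Fn1, codons 907 to 909, across the junction of exons 18 and 19, chr1:71626215-71627169: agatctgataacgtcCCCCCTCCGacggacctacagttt
Fn1, codons 1358 to 1360, across the junction of exons 25 and 26, chr1:71612622-71613772: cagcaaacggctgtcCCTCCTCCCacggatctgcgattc
Fn1, codons 1379 to 1381, exon 26, chr1:71612559-71612597: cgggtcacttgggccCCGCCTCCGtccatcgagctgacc
Fbn1, codons 402 to 405, exon 11, chr2:125389983-125390024: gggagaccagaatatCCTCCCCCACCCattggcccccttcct
Fbn1, codons 430 to 432, exon 11, chr2:125389902-125389940: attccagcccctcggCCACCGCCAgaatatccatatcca

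The deposited values were RPKM, reads per kilobase of gene, scaled to a library size that gave the median gene an equal level in each library. Whole reads were recovered from them. Libraries held 642429 to 704006 gene reads, of which protein-coding genes took 33.9% to 41.5% in WT and 59.2% to 65.4% in the KO-labelled libraries. The targeted gene, Eif5a, was at 34.9 and 65.2 RPKM in WT and at 60.3 and 59.4 RPKM in the KO-labelled libraries, from 50, 73, 130 and 114 reads. The groups overlapped (log2 difference 0.32 ± 0.48 (SE), adjusted p-value 0.839 in limma), so its footprints do not check the labels, and every direction below is between labels. The summed level of 10 myoblast markers was 282 and 206 RPKM in WT and 99.6 and 122 RPKM in the KO-labelled libraries. All 8 of them that were tested had a negative log2 difference, although that of Itga7 was only -0.02. Over all tested genes, 50% had a positive one. Myf5 averaged under 1 RPKM in the KO-labelled libraries, so it passed the filter on low values only through WT. The muscle stem cell marker Pax7 had 8.49 and 3.62 RPKM in WT against 0.941 and 1.48 RPKM, and Myod1, the myoblast transcription factor, had 140 and 118 RPKM against 48.6 and 79.8 RPKM. The summed level of 12 fibroblast markers was 636 and 426 RPKM in WT and 997 and 484 RPKM in the KO-labelled libraries, so KO-labelled replicate 2 lay between the WT libraries. Of the 12, 9 were highest in KO-labelled replicate 1, as were 24.3% of all tested genes.

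Across the matrix genes, a single library stood above the rest. In KO-labelled replicate 1, all 9 tested genes were at their highest of the 4 libraries, as were 24.3% of all 11363 genes tested, and 3 of them (Tnc, Thbs1 and Fbn1) were at least 2-fold above every other library on the RPKM + 1 scale, as were 2.22% of all genes. KO-labelled replicate 2 lay within the WT range for Fn1, Thbs1, Thbs2 and Fbln2, below it for Tnc and above it for Sparc, Fstl1, Postn and Fbn1. By the group comparison, in limma on log2(RPKM + 1), all 9 had a positive log2 difference, where 50% of all tested genes did. The differences of the 9 lay between 0.46 and 1.39, and 0 passed an adjusted p-value of 0.05, in this fit or with voom on the recovered reads. Over all tested genes, that threshold called 0.00880% as higher. Unadjusted, 1 of the 9 (Postn) had a p-value under 0.05, as did 2.86% of all tested genes in the higher direction. In a bulk culture, fewer cells of a type and less RNA per cell cannot be told apart, and footprints without matched mRNA levels do not separate the amount of an mRNA from its translation.

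**Figure D1:**
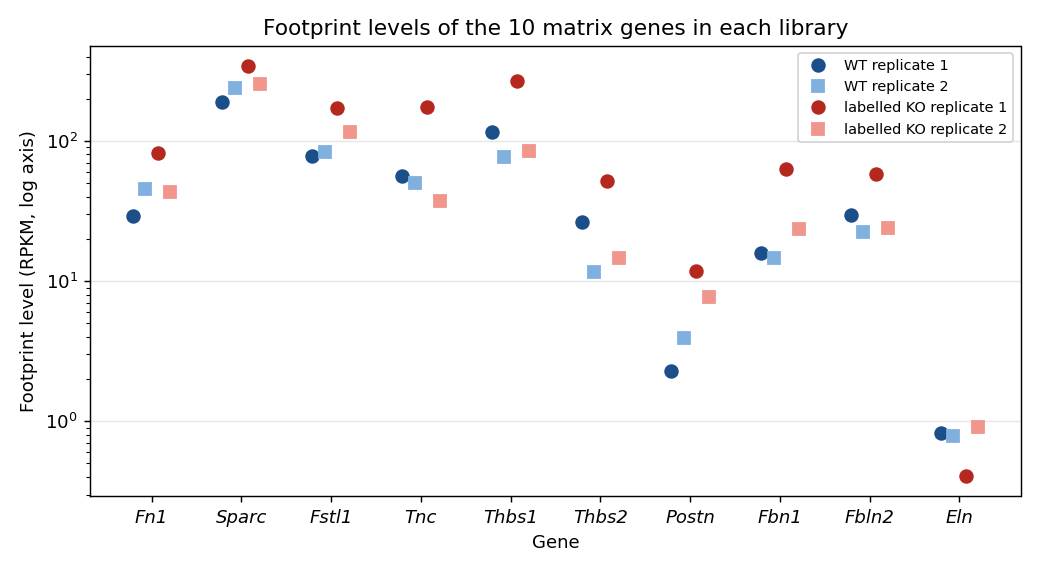
Footprint level in RPKM (log axis) of each of the 10 genes in each library, circles for replicate 1 and squares for replicate 2, blue for WT and red for KO-labelled libraries. For 9 genes the highest point is KO-labelled replicate 1, and only Eln, with 16 reads in all, has its lowest point there.

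Fn1 (ENSMUSG00000026193, chromosome 1, 71585520 to 71653200, minus strand, GRCm38) encodes fibronectin. Its level was 29.1 and 45.4 RPKM in WT and 82.1 and 43.4 RPKM in the KO-labelled libraries, from 205, 250, 870 and 410 reads. KO-labelled replicate 2 lay between the WT libraries, so the groups overlapped. On the log2 scale the groups differed by 0.70 ± 0.52 (SE, 95% interval -0.57 to 1.97, limma, adjusted p-value 0.710). It was 0.25 without KO-labelled replicate 1, 0.39 without WT replicate 1 and 1.15 without KO-labelled replicate 2.

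Sparc (ENSMUSG00000018593, chromosome 11, 55394500 to 55423183, minus strand), or osteonectin, binds collagen and modulates cell adhesion. It had the most footprints of the 10 genes, 434 and 427 of them in WT against 1168 and 777 in the KO-labelled libraries. Its level was 190 and 239 RPKM in WT against 340 and 254 RPKM. The groups did not overlap, but KO-labelled replicate 2 was nearer to WT replicate 2 than the WT libraries were to each other. Its log2 difference, 0.46 ± 0.51 (SE), had an adjusted p-value of 0.773 (limma), and it was 0.25 without KO-labelled replicate 1 and 0.30 without WT replicate 1.

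Fstl1 (ENSMUSG00000022816, chromosome 16, 37776873 to 37836514, plus strand), a secreted glycoprotein of the SPARC family, had 78.0 and 83.8 RPKM in WT and 172 and 116 RPKM in the KO-labelled libraries. Both KO-labelled values were above both WT values, by more than the spread of 4.11 RPKM (SD, n = 2) within WT. The level in KO-labelled replicate 1 was 2.13 times the WT mean, and in KO-labelled replicate 2 it was 1.43 times. On the log2 scale the groups differed by 0.80 ± 0.47 (SE, 95% interval -0.36 to 1.95, limma, adjusted p-value 0.697), and by 0.51 without KO-labelled replicate 1.

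Tnc (ENSMUSG00000028364, chromosome 4, 63959785 to 64047015, minus strand) encodes tenascin-C, an anti-adhesive protein of regenerating tissue. It showed the largest gap between replicates of the 9 tested genes. The level was 56.6 and 50.3 RPKM in WT, 175 RPKM in KO-labelled replicate 1 and 37.3 RPKM in KO-labelled replicate 2. One KO-labelled library thus lay above and the other below both WT libraries. KO-labelled replicate 1 had 4.70 times the level of replicate 2, from 1236 and 234 reads, whereas WT replicate 1 had 1.13 times the level of WT replicate 2. The log2 difference was 0.60 ± 0.77 (SE), and it was -0.50 without KO-labelled replicate 1 and 1.70 without KO-labelled replicate 2.

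Thbs1 and Thbs2 encode thrombospondins, which bind matrix and cell surface receptors, and Thbs1 can activate latent TGF-beta. Thbs1 (ENSMUSG00000040152, chromosome 2, 118111876 to 118127133, plus strand) had 116 and 76.9 RPKM in WT and 267 and 84.6 RPKM in the KO-labelled libraries. Thbs2 (ENSMUSG00000023885, chromosome 17, 14665500 to 14694235, minus strand) had 26.3 and 11.5 RPKM in WT and 51.8 and 14.7 RPKM in the KO-labelled libraries. In both genes KO-labelled replicate 2 lay between the WT libraries, while KO-labelled replicate 1 was 3.16 and 3.53 times replicate 2 for Thbs1 and Thbs2. Thbs2 also had the widest gap between WT libraries, 111 against 38 reads and 2.28-fold in RPKM. The log2 differences were 0.67 ± 0.68 (SE) and 0.64 ± 0.72 (SE). That of Thbs2 was 0.08 without WT replicate 2 and 1.20 without WT replicate 1, and that of Thbs1 was 0.38 without WT replicate 2. Without KO-labelled replicate 1 they turned to -0.16 for Thbs1 and -0.24 for Thbs2, and without KO-labelled replicate 2 they were 1.49 and 1.51.

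Postn (ENSMUSG00000027750, chromosome 3, 54361109 to 54391037, plus strand) encodes periostin, a matricellular protein of fibroblasts in injured tissue. It was the gene with the largest log2 difference and, with 175 reads in all, the second lowest level. Its reads were 12 and 16 in WT and 93 and 54 in the KO-labelled libraries. That gave 2.29 and 3.90 RPKM in WT and 11.8 and 7.68 RPKM in the KO-labelled libraries, and the groups did not overlap. The KO-labelled mean was 3.15 times that of WT. In limma the log2 difference came to 1.39 ± 0.42 (SE, 95% interval 0.36 to 2.43), at an unadjusted p-value of 0.0168 and 0.650 after adjustment. Unlike the thrombospondins and tenascin, Postn was above WT in each KO-labelled library taken alone, 3.81 times the WT mean in replicate 1 and 2.48 times in replicate 2, although the difference between Postn and those genes was not tested.

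Fbn1 (ENSMUSG00000027204, chromosome 2, 125300594 to 125507993, minus strand) encodes fibrillin-1. The level was 15.9 and 14.5 RPKM in WT, 63.0 RPKM in KO-labelled replicate 1 and 23.4 RPKM in KO-labelled replicate 2, from 116, 83, 693 and 229 reads. The WT libraries were close together, and both KO-labelled libraries were above them, at 4.15 and 1.54 times the WT mean. In limma the log2 difference came to 1.29 ± 0.56 (SE, 95% interval -0.09 to 2.66), at an unadjusted p-value of 0.0620 and 0.675 after adjustment. It was 0.59 without KO-labelled replicate 1 and 1.98 without KO-labelled replicate 2.

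Fbln2 (ENSMUSG00000064080, chromosome 6, 91212455 to 91272540, plus strand) encodes fibulin-2, which binds fibronectin, fibrillin and basement membrane proteins. It had 29.7 and 22.3 RPKM in WT and 57.6 and 23.9 RPKM in the KO-labelled libraries. KO-labelled replicate 2 lay between the WT libraries. Its log2 difference, 0.51 ± 0.54 (SE), had an adjusted p-value of 0.762 (limma), and it was 0.32 without WT replicate 2, -0.10 without KO-labelled replicate 1 and 1.13 without KO-labelled replicate 2.

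Eln (ENSMUSG00000029675, chromosome 5, 134702593 to 134747323, minus strand), which encodes elastin, was at the limit of detection. WT libraries held 4 and 3 of its reads and KO-labelled libraries 3 and 6, where a floor of 3 reads was set for detection. Its mean RPKM was under 1, so it did not enter the test, and no fold is given. A difference in Eln was not detectable at this depth.

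**Figure D2:**
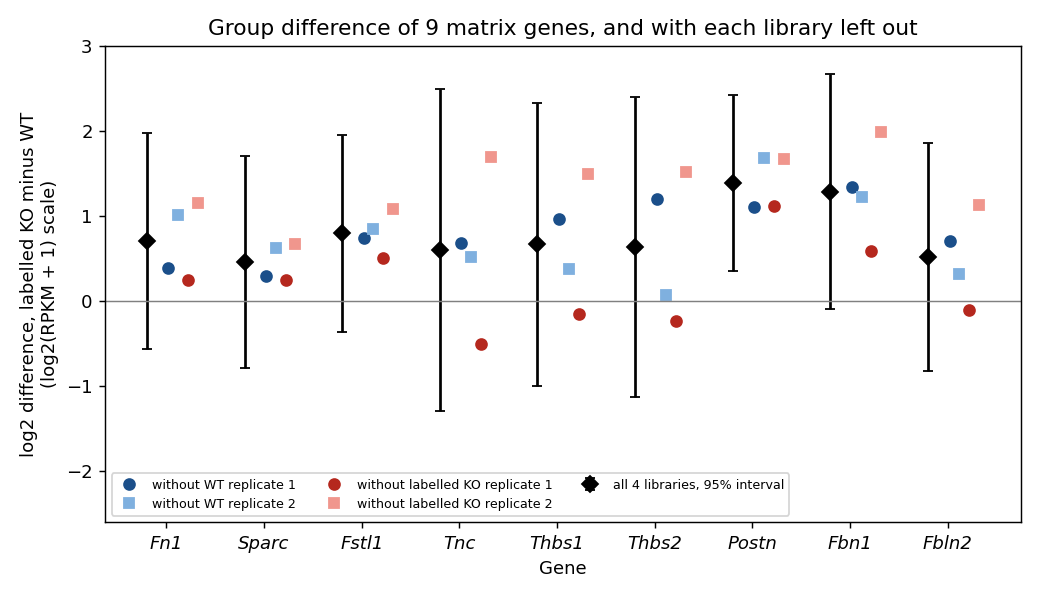
Black diamonds give the log2 difference, KO-labelled libraries minus WT, of the 9 tested genes with its 95% interval from limma, and coloured points give the difference with a library left out. The interval of Postn alone lies above 0, and without KO-labelled replicate 1 (dark red circles) the differences of Tnc, Thbs1, Thbs2 and Fbln2 lie below 0.

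Counted together, the groups did not overlap for 4 of the 9 tested genes (Sparc, Fstl1, Postn and Fbn1), each with the KO-labelled libraries higher, where 20.1% of all tested genes separated in that direction. With a library left out, when groups of 1 and 2 libraries separate more easily, the number higher was 4 without KO-labelled replicate 1 (31.7% of all tested genes), 9 without KO-labelled replicate 2 (33.1%), 7 without WT replicate 1 (34.9%) and 5 without WT replicate 2 (35.9%). Without KO-labelled replicate 1, Tnc also separated, in the lower direction, as did 30.4% of all tested genes. A combined criterion, a 2-fold difference and an unadjusted p-value under 0.05, was met by 1 gene, Postn, and in the higher direction by 2.67% of all tested genes. In 7 alternative fits, among them voom, Fbn1 met it too, in which 1.94% to 3.93% of all genes did so as higher. With RPKM rescaled to total reads, which moved the median of all genes to 0.50, 4 genes met it (Fn1, Fstl1, Postn and Fbn1), and so did 13.9% of all genes. Leaving out any library took Postn past 0.05, with unadjusted p-values in limma of 0.112 without WT replicate 1, 0.0536 without WT replicate 2, 0.179 without KO-labelled replicate 1 and 0.0799 without KO-labelled replicate 2. Its log2 difference was 1.10 to 1.68 in these fits. The median log2 difference was 0.67 over the 9 genes and 0.00 over all genes. Without KO-labelled replicate 1, 5 of the 9 genes were higher and 4 were lower than in WT, the lower being Tnc (-0.50), Thbs2 (-0.24), Thbs1 (-0.16) and Fbln2 (-0.10).

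How far the replicates differed was then set beside all genes. The median log2 difference between the KO-labelled libraries, replicate 1 minus replicate 2, was 1.24 over the 9 genes and -0.01 over all tested genes. Between WT replicates 1 and 2 it was 0.12 over the 9 genes and 0.00 over all genes. Sparc and Fstl1 differed least between the KO-labelled libraries, by 1.34 and 1.49 times. The thrombospondins and Tnc differed most, by 3.16 to 4.70 times.

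**Figure D3:**
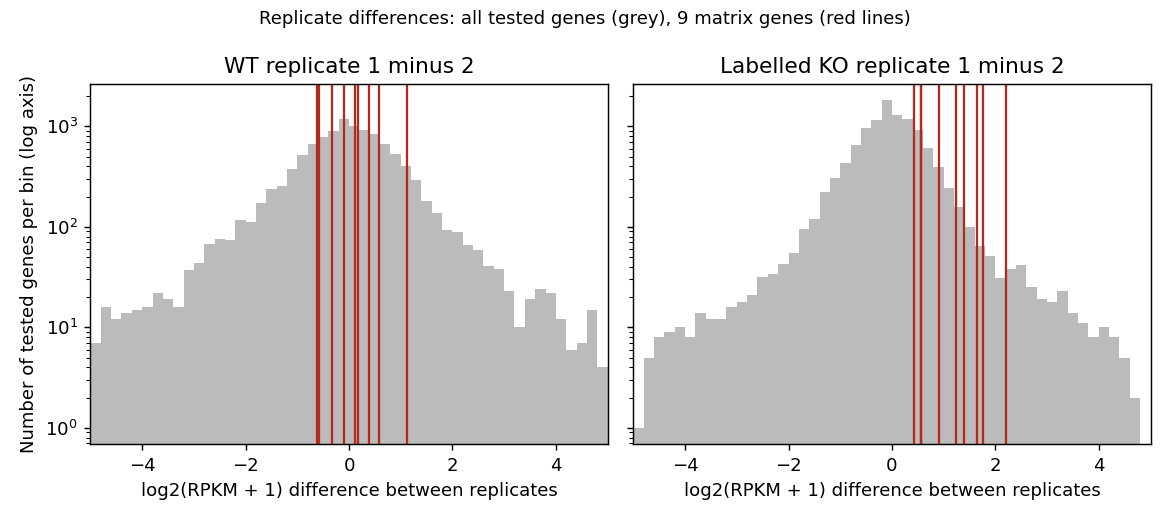
Grey bars count all tested genes by the difference between replicates on the log2(RPKM + 1) scale, for WT on the left and KO-labelled libraries on the right, and red lines mark the 9 tested matrix genes (88 and 35 genes beyond 5 in either direction are not drawn). The red lines lie on both sides of 0 for WT and all above 0 for the KO-labelled libraries.

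Taken as a share of protein-coding reads, which does not depend on the authors' scaling, the 10 genes received 0.712% (95% Wilson interval 0.681% to 0.744%) and 0.681% (0.647% to 0.716%) in WT. In the KO-labelled libraries they received 1.51% (1.48% to 1.55%) in replicate 1 and 0.725% (0.698% to 0.752%) in replicate 2. The share of KO-labelled replicate 2 was within the counting interval of WT replicate 1, and that of KO-labelled replicate 1 was above the intervals of all the other libraries. The mean shares were 0.696% ± 0.0219 (SD, n = 2) in WT and 1.12% ± 0.558 (SD, n = 2) in the KO-labelled libraries. The ratio of the means was 1.61, and an exact two-sided permutation test gave a p-value of 0.333, the smallest that 2 against 2 libraries allow. Without KO-labelled replicate 1 the ratio was 1.04.

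A set of 10 collagen chains (Col1a1, Col1a2, Col3a1, Col4a1, Col4a2, Col5a1, Col5a2, Col6a1, Col6a2 and Col6a3) was used as the nearest comparison within the matrix. These chains received 0.750% and 0.503% of protein-coding reads in WT and 0.810% and 0.512% in the KO-labelled libraries, so replicate 1 was above replicate 2 in each group. The non-collagen genes had 0.949 and 1.35 reads for each collagen read in WT and 1.87 and 1.41 in the KO-labelled libraries. Both KO-labelled libraries had a higher ratio than both WT libraries, although KO-labelled replicate 2 was within the spread of the WT libraries, 0.286 (SD, n = 2), of WT replicate 2. The ratio of the means was 1.42, with an exact permutation p-value of 0.333, again the smallest possible, so a difference between the 2 kinds of matrix gene could not be shown with these libraries.

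**Figure D4:**
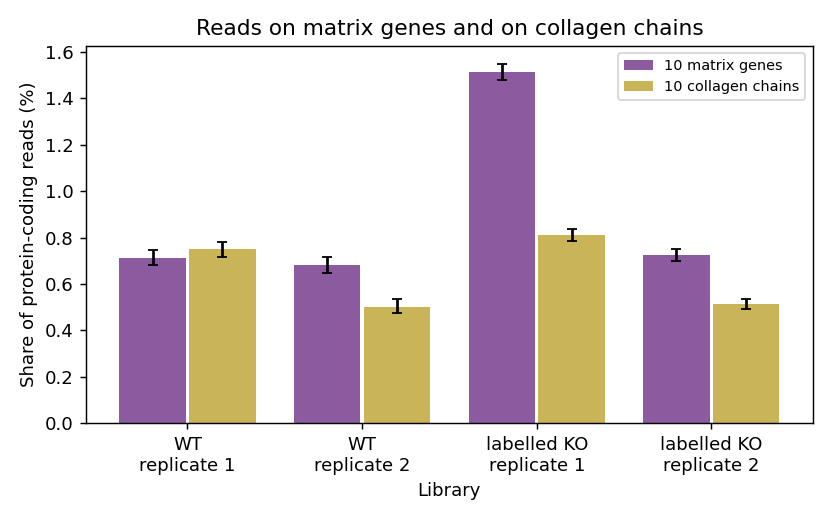
Share of protein-coding reads, in percent, taken by the 10 non-collagen matrix genes (purple) and by 10 collagen chains (yellow) in each library, with 95% Wilson intervals for counting error. The purple bar stands at 1.51% in KO-labelled replicate 1 and between 0.681% and 0.725% in the other 3 libraries.

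The genes were next ordered by level. In WT the mean RPKM ran from Sparc (215) through Thbs1 (96.3), Fstl1 (80.9), Tnc (53.4), Fn1 (37.3), Fbln2 (26.0), Thbs2 (18.9), Fbn1 (15.2) and Postn (3.10) to Eln (0.803). Among neighbours in that order, the ranges of Thbs1 and Fstl1, of Fn1 and Fbln2, of Fbln2 and Thbs2, and of Thbs2 and Fbn1 overlapped. In the KO-labelled libraries, Fbn1 (43.2 RPKM) came above Fbln2 (40.8) and Thbs2 (33.2), and all neighbours from Sparc down to Thbs2 overlapped. The gene lengths behind RPKM include untranslated parts, which ribosomes mostly do not occupy. Coding sequence made up 18.7% of the length of Fstl1 and 26.3% of that of Sparc against 81.5% for Tnc. With coding length in place of gene length, the WT mean RPKM was 816 for Sparc, 433 for Fstl1, 167 for Thbs1 and 65.6 for Tnc. Fstl1 thus came above Thbs1 on this scale.

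Properties of the coding sequence were set beside the differences. Across 9866 tested protein-coding genes, which do not count as independent replicates, a coding sequence richer in GC went with a lower log2 difference (Spearman's rho of -0.36). Postn, the lowest in GC at 46.0%, had the largest difference, and Sparc and Fbln2, at 56.9% and 58.4%, had the smallest. The other 6 tested genes lay between 51.7% and 54.2%. The 5407 genes with 50% to 60% GC had a median log2 difference of -0.01. Once trends with GC content and coding length were taken out of each library, the median over the 9 genes was 0.77, the difference of Postn 1.14 and that of Fbn1 1.39 (limma, unadjusted p-value 0.0146, adjusted 0.664). The share of tested protein-coding genes with a run of 3 or more prolines was 25.7%. The carriers among the matrix genes, Fn1 and Fbn1, whose stretches are given above, had positive differences of 0.70 and 1.29 in the main fit. Both were inside the range of the genes without such a run. Fbn1 was above that range once the GC and length trends were removed, without WT replicate 1 and without KO-labelled replicate 2.

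**Figure D5:**
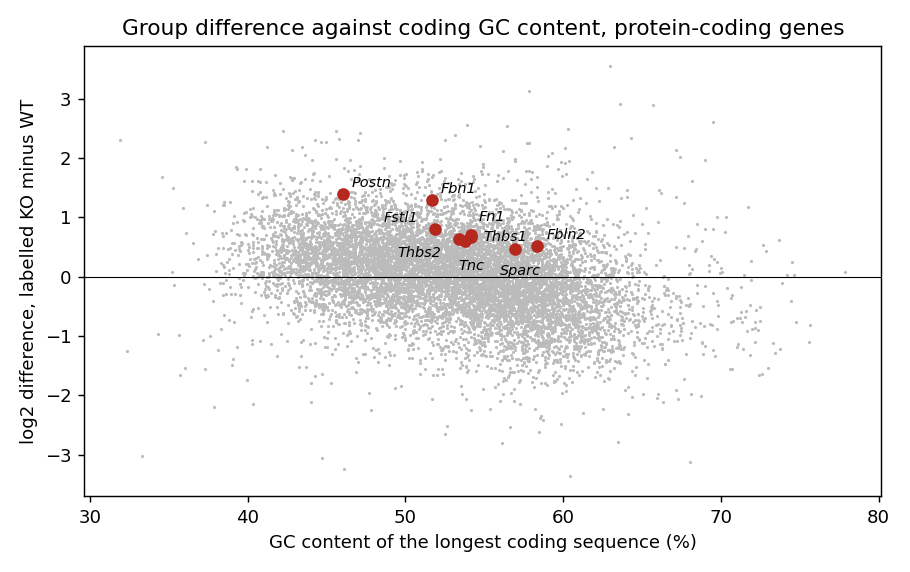
Log2 difference, KO-labelled libraries minus WT, against the GC content of the longest coding sequence for tested protein-coding genes (grey) and the 9 tested matrix genes (red). All 9 red points lie above 0, with Postn at 46.0% and 1.39 and Fbln2 at 58.4% and 0.51.

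Related genes were counted from 3 lists, to be read beside the 50% of all tested genes that had a positive log2 difference. Of 22 other matricellular and secreted glycoproteins, 15 were tested, of which 10 had a positive and 5 a negative log2 difference, with a median log2 difference of 0.45. None passed the adjusted threshold in limma, and 2 met the combined criterion in the higher direction, Cthrc1 and Comp, with 11 and 23 reads in all. Both passed the filter on low values only through the KO-labelled libraries, and Ccn5, among the negative ones, only through WT. Nothing is read from the count past the criterion, and the counts by sign and the median include these genes. Of the 8 with at least 100 reads, the largest differences were those of Fst, which encodes the activin and myostatin inhibitor follistatin, and Spp1, which encodes osteopontin. Fst had 4.34 and 6.94 RPKM in WT and 25.2 and 7.55 RPKM in the KO-labelled libraries, with a log2 difference of 1.20 ± 0.62 (SE). Spp1 had 463 and 1958 RPKM in WT and 1935 and 1845 RPKM in the KO-labelled libraries (0.99 ± 0.85), where WT replicate 1 stood apart from the other libraries. Tnxb, a tenascin, had the lowest difference of these 8 (-0.16 ± 0.42).

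Of 25 other microfibril, elastic fibre and basement membrane glycoproteins, 21 were tested, 14 of them higher and 7 lower, with a median of 0.35 and none past the adjusted threshold. The higher ones include Egfl6, which passed the filter on low values only through the KO-labelled libraries. By the fold and unadjusted criterion, 1 was higher (Efemp1, with 28 reads in all) and 1 lower (Ltbp3), where 4.29% of all tested genes met it as lower and, as above, 2.67% as higher. Mfap5, a microfibril protein that binds fibrillin, had 2.31 and 5.91 RPKM in WT and 20.9 and 6.55 RPKM in the KO-labelled libraries, with a log2 difference of 1.43 ± 0.65 (SE). Its high value was again in KO-labelled replicate 1. Matn2, a matrilin, had a difference of 0.81 ± 0.38. In the other direction, Ltbp3, which binds latent TGF-beta, had 17.0 and 12.2 RPKM in WT and 5.47 and 5.05 RPKM in the KO-labelled libraries, with a difference of -1.30 ± 0.38 (SE, limma, adjusted p-value 0.650). Fbln1, which encodes fibulin-1, followed at -0.98 ± 0.43 (SE), so the differences in this class lay on both sides of 0.

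Of 21 receptors, TGF-beta ligands and processing enzymes, 18 were tested, with 11 higher, 7 lower, a median of 0.04 and none past the adjusted threshold. Itgav, the alpha-v chain of several receptors for fibronectin, had 11.9 and 11.7 RPKM in WT and 34.9 and 23.9 RPKM in the KO-labelled libraries. Both were above both WT libraries, and the log2 difference was 1.23 ± 0.41 (SE), at an unadjusted p-value of 0.0240 and, adjusted, 0.665 (limma). Itgav and the syndecan Sdc2, with 55 reads in all, were the 2 genes past the fold and unadjusted criterion. Both were higher, and 2.67% of all tested genes met it in that direction. Itgb1, the beta-1 integrin chain, had a difference of 1.07 ± 0.51 (SE). Among the 14 with at least 100 reads, the lowest were Tgfb1, a ligand that fibrillin microfibrils store in latent form (-0.83 ± 0.55), and Dip2a, described as a receptor for Fstl1 (-0.56 ± 0.39). The number of tested genes that were highest in KO-labelled replicate 1 was 8 of 15, 10 of 21 and 9 of 18 in the 3 lists, in the order given, and 7 of 10 for the collagen chains, against 24.3% of all genes.

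Markers of cell types that such a culture could hold were summed in each library. Endothelial markers (8 genes) had 228 and 334 RPKM in WT and 321 and 406 RPKM in the KO-labelled libraries, immune markers (8 genes, of which Itgam had no read in any library) 48.2 and 76.5 against 66.8 and 51.4 RPKM, and mural cell markers (7 genes) 148 and 102 against 78.5 and 96.0 RPKM. Adipocyte markers (4 genes) had 40.7 and 63.7 RPKM in WT and 92.4 and 62.3 RPKM in the KO-labelled libraries. Most of the adipocyte sum in each library was Fabp4, which endothelial cells express too (31.0 and 58.2 against 89.9 and 61.5 RPKM), whereas the adipocyte hormone gene Adipoq had 4 and 3 reads in WT and 0 in both KO-labelled libraries. Of these sums, that of adipocyte markers and, as given above, that of fibroblast markers were highest in KO-labelled replicate 1, the library with the most reads on the matrix genes. Of the 12 fibroblast markers, 9 had a positive and 3 a negative log2 difference (Thy1 at -0.36, Col3a1 at -0.27 and Pdgfrb at -0.09), with a median of 0.30. Among those with a positive difference, Dcn, which encodes decorin, had 240 and 126 RPKM in WT and 460 and 171 RPKM in the KO-labelled libraries, and Pdgfra, the receptor of fibro-adipogenic cells, 43.4 and 31.5 against 88.2 and 43.6 RPKM. The part of these cells in the level of the matrix genes was not tested.

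For Sparc, the gene with the most reads, the protein-coding genes of most similar profile were sought among 1513 genes with at least 200 reads, by the root mean square distance of centred log2 levels over the 4 libraries. The closest were Ftsj3, Rabgap1 and Ik, at distances of 0.02, 0.03 and 0.03. With 4 libraries many genes come close, and nothing is drawn from this likeness.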

How the data were processed

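Per the labels and the methods of the study, the authors removed low-quality, adapter, rRNA and tRNA reads, aligned the rest with TopHat2 to the mouse genome (mm10, the GRCm38 build) and counted reads per Ensembl gene, in the release the study names, with HTSeq. Tool versions, the use of strand and the treatment of reads matching several places are not given in the sources used here. The authors deposited RPKM in a single table, with gene position, length and class.

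RPKM multiplied by gene length came out as whole reads, within 0.01 read, for 100.0% of values. Library sizes implied by the deposited values equalled median-of-ratios size factors times the geometric mean of totals. On that scale a shift common to most genes would not show. The floor was 3 reads, and Wilson intervals (95%) and floors cover counting error only.

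The main test was limma 3.58.1 (R 4.3.3; lmFit, eBayes with a trend) on log2(RPKM + 1), which understates changes of low genes, two-sided, for the 11363 genes whose RPKM averaged 1 or more, with Benjamini-Hochberg adjustment over all of them at 0.05. Sums over genes were compared by exact permutation. Coding sequences came from GENCODE vM21, which held 99.7% of the identifiers, with an unchanged start and end for 99.7% of these. Overlapping genes of other strands held at most 1 read in all.

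All 10 genes are named. From each list of related genes the text names the 2 largest differences in each direction among genes with at least 100 reads. Genes named as past the unadjusted criterion, and collagens and markers given singly, were chosen after their values were seen, as was the comparison of KO-labelled replicate 1 with the other libraries. Members, lists and tests were chosen with earlier results of these data known. Alternatives covered the pseudocount, filter, variance prior, scaling, replicate block, GC content and length, voom on recovered reads and each library left out.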

Additional observations from a re-analysis of the deposited data

How the results depend on the processing

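The 9 tested genes kept a positive log2 difference in all 12 alternatives that used the 4 libraries (108 values). Those that changed only the filter, gene class, variance prior or replicate block return the same log2 differences. They are no check of the direction. None of the 9 genes passed the adjusted threshold in any of the 12 alternatives. The smallest adjusted p-value among them was 0.190, for Postn with voom on recovered reads. Scaling to total reads, which moved the median of all genes to 0.50, raised Postn to 1.90 and Fbn1 to 1.87. The count of genes past 2-fold and an unadjusted p-value of 0.05 went from 1 to 2, Fbn1 joining Postn, without a filter, among protein-coding genes alone, with a robust variance prior, with voom, after removal of trends with GC and length, and after that removal in the fit with the replicate block. It was also 2 with the replicate block alone (2.78% of all genes as higher) and 4 on total reads (Fn1 and Fstl1 added; 13.9% of all genes), and 0 to 2 with a library left out (1.75% to 6.42% of all genes). The replicate numbers share no stated origin, and the deviations of same-numbered libraries had a correlation of 0.06 over all 11363 tested genes and 0.30 over the 1663 with at least 200 reads. With 2 pairs and no shared origin, the numbers were not taken to pair the libraries. The block changed no adjusted call among the 9 genes, while over all genes it took the calls from 12 to 0, and from 0 to 24 once GC and length trends were removed.

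With a library left out, a group of 1 library is assumed to vary like the other group. The number of genes without overlap and higher in the KO-labelled libraries was then 4 to 9 (31.7% to 35.9% of all genes), and the median log2 difference over the genes 0.25 to 1.49. Tnc (-0.50), Thbs1 (-0.16), Thbs2 (-0.24) and Fbln2 (-0.10) reversed without KO-labelled replicate 1. Without KO-labelled replicate 2 the differences of Tnc, Thbs1, Thbs2 and Fbln2 were 1.70, 1.49, 1.51 and 1.13. The ratio of shares of protein-coding reads, 1.61, became 2.69 as a share of all gene reads, since protein-coding genes took more reads in the KO-labelled libraries, and 1.04 to 2.17 with a library left out. The ratio to collagen reads was 1.21 to 1.73 with a library left out. Depth limits Eln and Postn most, with 16 and 175 reads in all.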
